A study of Homo sapiens with 12 samples.

Results

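Genes of the Notch pathway, 10 in number, were followed in the RNA of MDA-MB-231 cells exposed to Paclitaxel, a drug that stabilizes microtubules and blocks cell division. They were 3 receptors (NOTCH1, NOTCH2 and NOTCH3), 3 ligands (JAG1, JAG2 and DLL1), the DNA-binding factor RBPJ and 3 target genes (HES1, HEY1 and NRARP). The genes were chosen by name, and each symbol matched 1 identifier, giving 10 of the 63568 genes in the count table. All 10 passed the filter on low counts in every comparison.

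MDA-MB-231 is an established triple negative breast cancer line, and here it carried nuclear GFP and was grown as small droplets in Matrigel, a basement membrane extract, on glass. RNA was sequenced from 12 libraries, 2 for each of 6 conditions, and the study describes the 2 as biological replicates. Untreated cells were taken on day 2 (C1) and on day 4 (C2). Treated cells received 0.0005, 0.005, 0.05 or 0.5 μM Paclitaxel on day 2 and were taken on day 4. The day of treatment is given by the labels and not by the methods of the RNA experiment. All 6 conditions shared the same culture and the same cells with nuclear GFP, for which no further genetic change is stated. The results therefore describe 1 cell line, and C2 is the control of the same day.

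Notch receptors are activated by ligands on neighbouring cells. The bound receptor is cut first by ADAM proteases at the surface and then by γ-secretase in the membrane, and the freed intracellular domain enters the nucleus, binds RBPJ and turns a repressing complex into an activating one. HES1 and HEY1, repressors of the basic helix-loop-helix kind, and NRARP, a feedback inhibitor, are well-known direct targets. In breast cancer the pathway is studied for its part in the growth and survival of stem-like cells.

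The libraries held from 38380629 to 79169121 counts, with a median of 65977095.5. VIM, CD44 and KRT18, which mark this line, summed to 1183 to 1908 CPM, that is, counts scaled to the same library size, whereas PGR lay between 0 and 0.0867 CPM and ESR1 between 0.0895 and 0.460 CPM. ERBB2 reached 26.6 to 52.4 CPM. Of the other cell types, 2 endothelial genes summed to 0.0298 to 0.704 CPM in untreated and 0.540 to 1.15 CPM in treated libraries, 3 leukocyte genes to 0 to 0.129 and 0.0920 to 0.300 CPM, and 7 fibroblast genes to 9.22 to 17 and 12.9 to 21.6 CPM. COL1A1 and PDGFRB made up most of the fibroblast sum, averaging 6.36 and 6.58 CPM in untreated and 8.25 and 5.91 CPM in treated libraries. The scarce PDGFRA, COL3A1, LUM, COL1A2 and DCN averaged 0.189, 0.235, 0.1355, 0.0111 and 0.00869 CPM in untreated libraries. In treated libraries these 5 genes averaged 1.14, 0.938, 0.297, 0.0417 and 0.0895 CPM in the same order. CD3E was at 0 in 6 libraries, and the part of such low signals in the results below was not tested. The 2 libraries of C1 stood apart, since the median gene differed by 0.42 on the log2 scale between them, against 0.06 to 0.16 within the other 5 conditions. Among genes with a GC content of 60% or more the first C1 library was higher than the second by a median of 0.64 on the log2 scale, and among genes under 45% GC the median difference was -0.20.

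All levels below are CPM on the TMM scale, a normalization by weighted trimmed means, and in bulk RNA fewer expressing cells and less RNA per cell cannot be told apart. To compare genes with each other, CPM was divided by the length of the canonical transcript in kb. On that scale HES1 came first, at 37.1 ± 8.75 CPM per kb (SD, n = 12), followed by JAG1 at 24.1 ± 3.79, RBPJ at 21.8 ± 2.5 and NOTCH2 at 11.7 ± 3.42. NOTCH1 followed at 2.47 ± 0.873 CPM per kb. NRARP and HEY1 came next at 1.55 ± 0.354 and 1.55 ± 0.528 CPM per kb, and their order was not fixed, with NRARP the higher gene in 5 of 12 libraries. JAG2 at 0.497 ± 0.0629, NOTCH3 at 0.164 ± 0.0694 and DLL1 at 0.0572 ± 0.0365 CPM per kb closed the list. HES1 exceeded JAG1, and JAG1 exceeded RBPJ, in 10 of 12 libraries each, while the other 6 steps in this order held in all 12. The cells thus held chiefly NOTCH2 among these receptors, 79.7% to 86.7% of the 3 summed per kb, and chiefly JAG1 among these ligands, 96.6% to 98.4% of the 3.

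**Figure D1:**
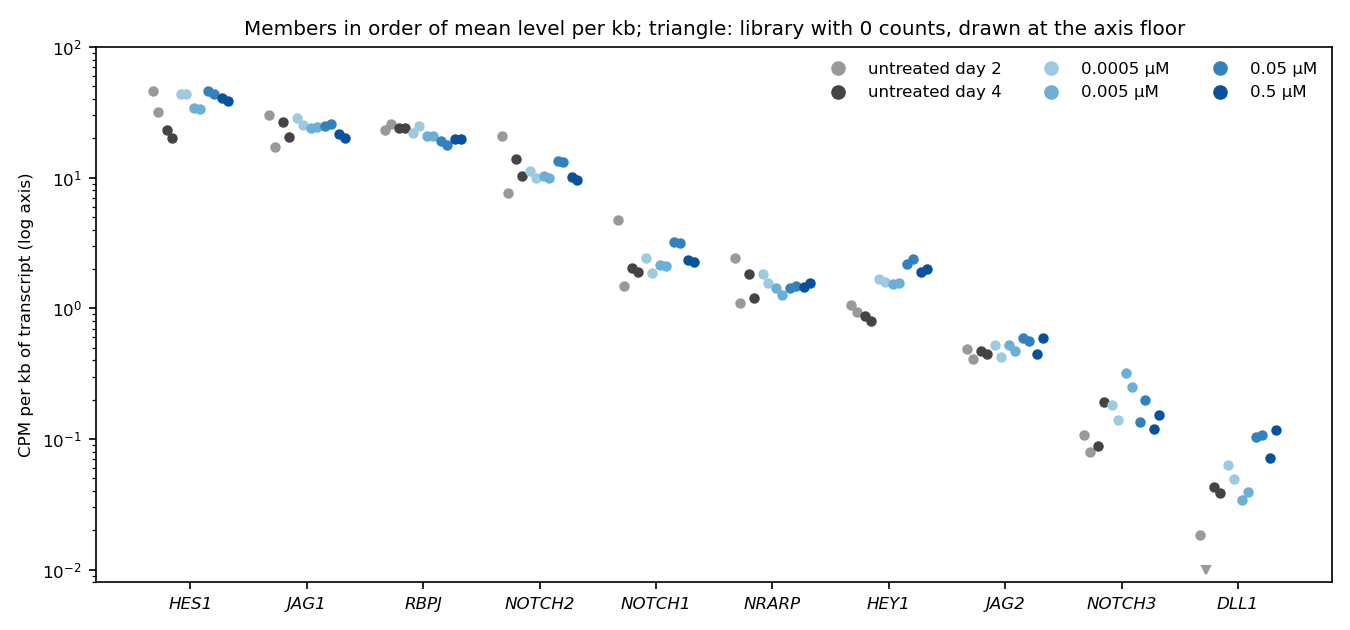
Level of the 10 genes in each library, in CPM per kb of canonical transcript on a log axis, ordered by the mean over 12 libraries. HES1, JAG1, RBPJ and NOTCH2 form the upper group and DLL1 lies lowest, with 1 library at 0 counts drawn as a triangle.

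The target genes HES1 and HEY1 were the only members called higher when each Paclitaxel dose was compared with C2. HEY1 was called at all 4 doses, at 1.85-fold to 2.73-fold, and HES1 at 3 of them, at 1.83-fold to 2.07-fold. At 0.005 μM HES1 was 1.55-fold and not called. Uncalled members also moved: NOTCH3 was 2.04-fold at 0.005 μM, NOTCH1 1.62-fold at 0.05 μM, and DLL1 2.54-fold and 2.25-fold at 0.05 and 0.5 μM. RBPJ was 0.773-fold at 0.05 μM. From the lowest to the highest dose 8, 6, 8 and 5 of the 10 were higher than C2, and 2, 4, 2 and 5 lower. At 0.0005 μM 2 of the 10 members were called at an adjusted p under 0.05, beside 2.34% of all 25249 genes tested. At 0.005 μM it was 1 of 10 beside 3.28%, at 0.05 μM 2 of 10 beside 8.32%, and at 0.5 μM 2 of 10 beside 6.32%. The 4 comparisons share the C2 libraries, so they are not independent of each other. The median log2 change over the 10 members was 0.18, 0.07, 0.29 and 0.08 from the lowest to the highest dose, where the median over all genes lay between -0.01 and 0.04.

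**Figure D2:**
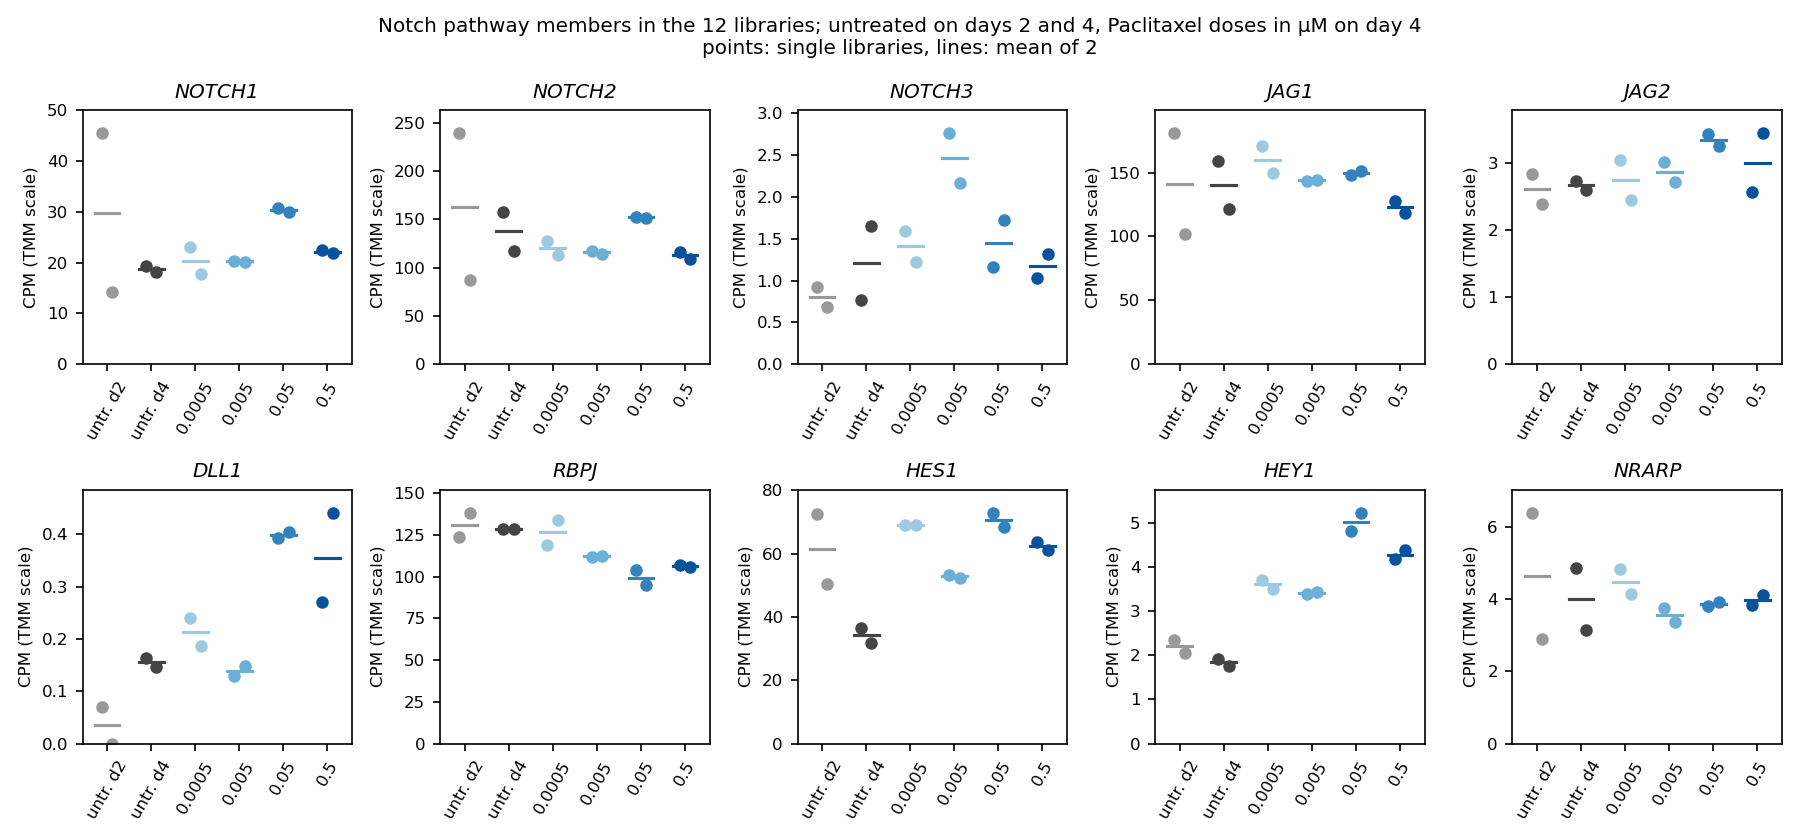
CPM of the 10 genes in each of the 12 libraries, by condition, with the mean of 2 as a line and each vertical axis starting at 0. All 8 treated libraries of HEY1 lie above its 4 untreated ones, both C2 libraries of HES1 are the lowest of the 12, and the 2 C1 libraries of NOTCH1 and NOTCH2 lie far apart.

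HEY1 (ENSG00000164683, GRCh37 chromosome 8, 80674606 to 80680092, minus strand) encodes a repressor best known from vascular and cardiac development. Its level was 2.35 and 2.06 CPM in C1 and 1.92 and 1.77 CPM in C2. At 0.0005 μM it was 3.71 and 3.50 CPM, at 0.005 μM 3.40 and 3.43, at 0.05 μM 4.82 and 5.23, and at 0.5 μM 4.17 and 4.38. Every treated library was above every untreated library, and the 2 replicates of each condition differed by less than treated and untreated libraries did. HEY1 was the 1 member of 10 whose treated and untreated libraries did not overlap, a pattern found in 13.4% of 23645 genes. Against C2 the log2 change was 0.97 ± 0.17 (SE; adjusted p = 0.0106), 0.89 ± 0.17 (adjusted p = 0.0153), 1.45 ± 0.17 (adjusted p = 0.00057) and 1.21 ± 0.17 (adjusted p = 0.00251) from the lowest to the highest dose. With the day 2 libraries as the control instead, a comparison added after the data were seen, HEY1 also rose at every dose, by 0.62 to 1.18 on the log2 scale (adjusted p from 0.00092 to 0.0319). Leaving out 1 of the 2 C2 libraries or 1 of the 2 libraries of that dose removed the calls at 0.0005 and 0.005 μM (adjusted p up to 0.1 and 0.133), and kept those at 0.05 and 0.5 μM.

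HES1 (ENSG00000114315, GRCh37 chromosome 3, 193853937 to 193856521, plus strand), the most studied Notch target, was called at 3 doses against day 4 and at none against day 2. It stood at 72.6 and 50.3 CPM in C1 and at the 2 lowest values of the series, 36.4 and 31.9 CPM, in C2. With Paclitaxel it was 69.2 and 69.1 CPM at 0.0005 μM, 53.4 and 52.4 at 0.005 μM, 72.9 and 68.3 at 0.05 μM, and 63.7 and 61.2 at 0.5 μM. The treated libraries thus lay above C2 and within or close to the range of C1. Against C2 the log2 change was 1.02 ± 0.17 (adjusted p = 0.00748), 0.63 ± 0.17 (adjusted p = 0.0622), 1.05 ± 0.17 (adjusted p = 0.00382) and 0.87 ± 0.17 (adjusted p = 0.0123) in order of dose. At 0.005 μM the value missed the threshold, and it passed it in 6 of 9 other settings, among them DESeq2 (adjusted p = 0.0213), the replicate block (adjusted p = 0.0426) and offsets for GC content and length (adjusted p = 0.0272), and without either C1 library. Against C1 the change was 0.17, -0.22, 0.20 and 0.02 in the same order (adjusted p from 0.372 to 0.941), and no dose was called. Against both untreated days together the call at 0.5 μM was lost, at 0.45 (adjusted p = 0.0531). Leaving out 1 of the 2 C2 libraries or 1 of the 2 libraries of that dose also removed the calls at 0.0005 and 0.5 μM (adjusted p up to 0.0991 and 0.0888), and not the call at 0.05 μM.

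The region before the HES1 start is shown because it holds matches to a core of the RBPJ motif. The same region of NRARP is beside it because NRARP, also a well-known direct target, was not called in any comparison. The 250 bases upstream of the annotated start were read from RefSeq on GRCh38.p14. They were searched on both strands for TGGGAA, a form of the core of the RBPJ motif, or its reverse complement TTCCCA. HES1 is at chr3:194135898-194136147 on the plus strand and NRARP at chr9:137302272-137302521 on the minus strand, both 5′ to 3′ with any match in capitals.
HES1: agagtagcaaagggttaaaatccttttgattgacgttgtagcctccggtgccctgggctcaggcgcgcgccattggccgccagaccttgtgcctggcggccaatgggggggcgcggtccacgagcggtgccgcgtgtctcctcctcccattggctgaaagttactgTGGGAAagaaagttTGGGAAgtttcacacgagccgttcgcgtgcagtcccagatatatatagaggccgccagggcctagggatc
NRARP: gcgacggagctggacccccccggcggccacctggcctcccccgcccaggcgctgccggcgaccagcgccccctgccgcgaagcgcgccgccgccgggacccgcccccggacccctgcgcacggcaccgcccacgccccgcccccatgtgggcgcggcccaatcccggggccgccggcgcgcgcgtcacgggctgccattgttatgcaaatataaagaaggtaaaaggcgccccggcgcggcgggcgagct
HES1 had 2 matches on the plus strand, from 84 to 79 and from 70 to 65 bases before the start, and NRARP had none. Of 35116 such windows over all genes, 20.8% held at least 1 match and 2.9% at least 2. Windows of 8 of the 10 members were searched. HEY1 and DLL1 were not among them, so whether their upstream bases hold a match is not known here. Beside HES1, only 1 of the 5 windows of RBPJ held a match, with 2. A match is a description of letters and not a shown binding site. Other forms of the motif were not searched for, so a site may lie in letters left in lower case. The absence of a match from this window says nothing about binding there or elsewhere. The 2 windows also differed in GC content, which was 59.2% for HES1 and 78.4% for NRARP.

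NRARP (ENSG00000198435, GRCh37 chromosome 9, 140194083 to 140196723, minus strand, 1 exon) is induced by Notch and blocks the complex on RBPJ. It stood at 6.41 and 2.89 CPM in C1, 4.88 and 3.17 CPM in C2, and between 3.37 and 4.84 CPM in the 8 treated libraries. The treated values lay inside the untreated range. Its log2 change against C2 was 0.16 ± 0.30, -0.17 ± 0.30, -0.06 ± 0.30 and -0.02 ± 0.30 in order of dose (adjusted p from 0.788 to 0.979). The difference between NRARP and the other 2 targets was not itself tested.

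**Figure D3:**
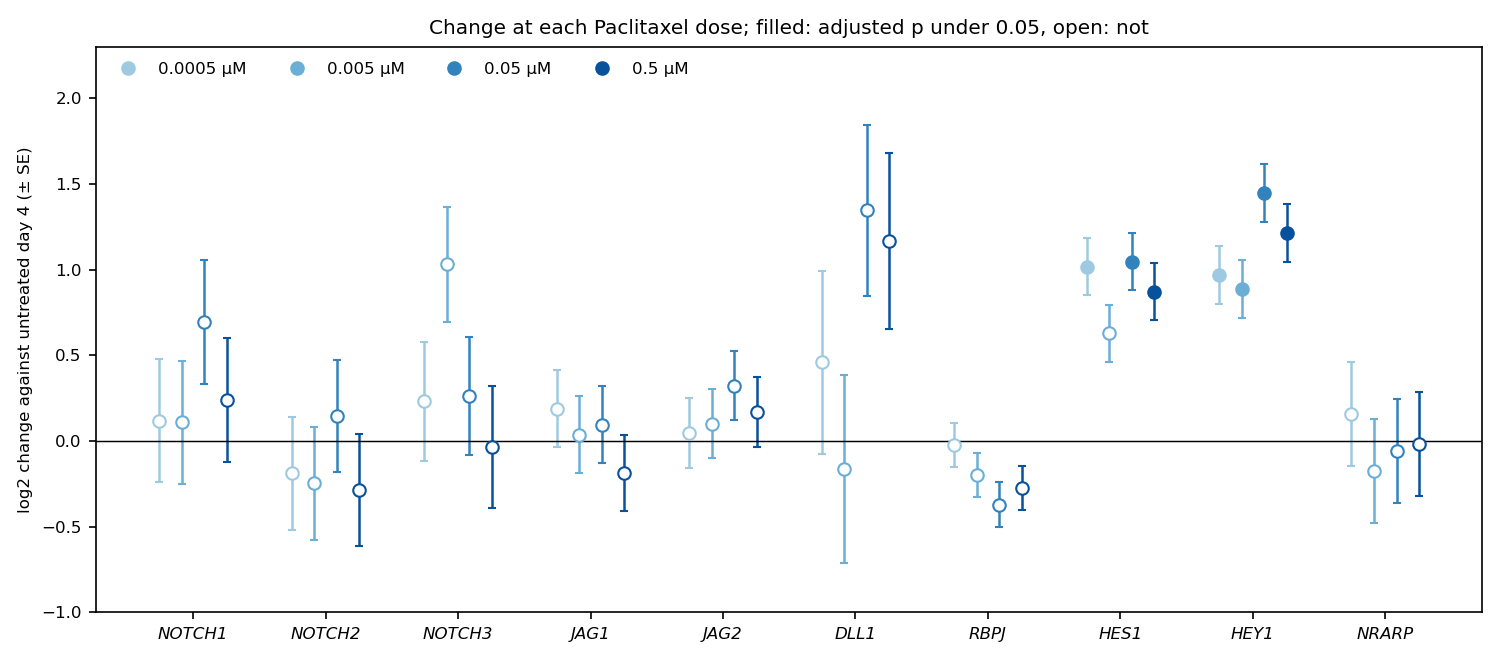
Log2 change of each gene at the 4 doses against untreated day 4, with bars of 1 SE, filled where the adjusted p was under 0.05. HEY1 is filled at 4 doses and HES1 at 3, and the other 8 genes are open throughout.

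NOTCH2 (ENSG00000134250, GRCh37 chromosome 1, 120454176 to 120643366, minus strand) was the leading receptor. It has near-identical partial copies in the genome, and only uniquely aligned reads were counted, so its level is uncertain to that extent. It was 239 and 87.0 CPM in C1, 158 and 117 in C2, 128 and 113 at 0.0005 μM, 118 and 114 at 0.005 μM, 153 and 152 at 0.05 μM, and 117 and 109 at 0.5 μM. The treated libraries lay within the untreated range, and the log2 change against C2 ran from -0.28 to 0.15 with an SE of 0.33 at each dose (adjusted p from 0.638 to 0.840). The 2 C1 libraries spanned the whole range of the series.

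NOTCH1 (ENSG00000148400, GRCh37 chromosome 9, 139388885 to 139440500, minus strand) was 45.5 and 14.3 CPM in C1, a 3.18-fold gap, and 19.5 and 18.1 CPM in C2. It was 23.0 and 17.8 CPM at 0.0005 μM, 20.4 and 20.1 at 0.005 μM, 30.8 and 30.0 at 0.05 μM, and 22.6 and 21.8 at 0.5 μM. Both libraries at 0.05 μM were above all other libraries of day 4. The log2 change at that dose was 0.70 ± 0.36 (adjusted p = 0.275), and at the other 3 doses it lay between 0.11 and 0.24. The SE reflects C1: without the first or the second C1 library the change at 0.05 μM was 0.69 or 0.71 and NOTCH1 was called, as it was with offsets for GC content and length (0.75).

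NOTCH3 (ENSG00000074181, GRCh37 chromosome 19, 15269849 to 15311806, minus strand) was scarce. It was 0.927 and 0.686 CPM in C1, 0.770 and 1.66 in C2, 1.60 and 1.22 at 0.0005 μM, 2.76 and 2.17 at 0.005 μM, 1.17 and 1.72 at 0.05 μM, and 1.04 and 1.32 at 0.5 μM. Both libraries at 0.005 μM were the highest of the 12, with a log2 change of 1.03 ± 0.34 against C2 (adjusted p = 0.123). The 2 C2 libraries differed by more than most conditions did, and without the first or the second of them the change was 0.57 or 1.67, neither called. NOTCH3 was called at that dose without the first or the second C1 library, at 1.03 or 1.04, with a filter of at least 1 count in total (1.04), against C1 (1.58) and against both untreated days (1.30).

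JAG1 (ENSG00000101384, GRCh37 chromosome 20, 10618332 to 10654647, minus strand), the abundant ligand, was 181 and 102 CPM in C1, 159 and 122 in C2, 171 and 150 at 0.0005 μM, 144 and 144 at 0.005 μM, 148 and 152 at 0.05 μM, and 128 and 119 at 0.5 μM. Of the 8 treated libraries, 1 at 0.0005 μM lay above both C2 libraries and 1 at 0.5 μM below both. The log2 change against C2 ran from -0.19 to 0.19 with an SE of 0.22 (adjusted p from 0.653 to 0.944).

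JAG2 (ENSG00000184916, GRCh37 chromosome 14, 105607319 to 105635161, minus strand), a second ligand of the Jagged kind, lay between 2.39 and 2.84 CPM in the 4 untreated libraries and between 2.45 and 3.44 CPM in the 8 treated ones. Its log2 change against C2 was between 0.05 and 0.32 with an SE of 0.20 (adjusted p from 0.372 to 0.931). Another annotated gene on the same strand shares 7.3% of its exonic bases.

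DLL1 (ENSG00000198719, GRCh37 chromosome 6, 170591294 to 170615653, minus strand), a ligand of the Delta kind, was close to the limit of detection, and counts are given for it. It had 5 and 0 counts in C1, 10 and 8 in C2, 18 and 11 at 0.0005 μM, 11 and 12 at 0.005 μM, 28 and 31 at 0.05 μM, and 18 and 24 at 0.5 μM. The library with 0 counts allows a level of up to 0.0895 CPM, counting error only. The 2 higher doses, at 0.270 to 0.442 CPM, were above every untreated library, where the highest was 0.164 CPM. The share of all genes with such a pattern was not counted. Against C2 the log2 change was 0.46 ± 0.53, -0.16 ± 0.55, 1.35 ± 0.50 and 1.17 ± 0.51 in order of dose, and none was called (adjusted p from 0.121 to 0.896). Against C1 DLL1 was called at 0.05 and 0.5 μM, at 3.06 and 2.88 on the log2 scale, and against both untreated days at 2.20 and 2.03. Without the first or the second C1 library DLL1 was called at 0.05 μM, at 1.34 or 1.36. Exons of FAM120B on the opposite strand cover 9.7% of its exonic bases, and the sources used here do not say whether counting used strand.

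RBPJ (ENSG00000168214, GRCh37 chromosome 4, 26165077 to 26436753, plus strand), through which all the receptors act on DNA, was one of the steadier members. It was 124 and 138 CPM in C1, 129 and 129 in C2, 119 and 134 at 0.0005 μM, 112 and 113 at 0.005 μM, 104 and 95.3 at 0.05 μM, and 107 and 106 at 0.5 μM. All 6 libraries at the 3 higher doses were below all 4 untreated libraries, a pattern whose share over all genes was not counted. The log2 change against C2 was -0.03, -0.20, -0.37 and -0.28 with an SE of 0.13 (adjusted p from 0.102 to 0.943), and none was called. Without the first or the second C1 library RBPJ was called at 0.05 μM, at -0.38 or -0.36, as it was against both untreated days (-0.39, adjusted p = 0.0364). With offsets for GC content and length the change at that dose was -0.16 (adjusted p = 0.276).

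Between day 2 and day 4 of untreated culture no member was called by edgeR, where 0.325% of 25249 genes were. An unadjusted p under 0.05 was found for 2 of the 10, and the share of all genes under that value was not counted. HES1 was -0.85 ± 0.17 on the log2 scale in C2 against C1 (adjusted p = 0.0649), and both C2 libraries were below both C1 libraries. HES1 was called in 5 of 8 other settings, by DESeq2 at -0.88 (adjusted p = 0.000494), and by edgeR with the replicate block (adjusted p = 0.0403), with offsets for GC content and length (adjusted p = 0.0199), and with both other filters on low counts (adjusted p = 0.0374 and 0.00156). It was also called without either C1 library. DLL1 was 1.72 ± 0.72 (adjusted p = 0.465) on 18 counts in C2 and 5 in C1. Leaving out 1 library gave DLL1 values from 1.16 to 6.37. The 2 C1 libraries were so far apart that leaving out the first one turned NOTCH1 from -0.68 to 0.40 and NOTCH2 from -0.25 to 0.66, and leaving out the second one moved them to -1.24 and -0.77. NOTCH2 was called in opposite directions in these fits, and NOTCH1 without the second library (adjusted p = 5.97e-05) and also with at least 1 count in total, at -0.69 (adjusted p = 0.042). With offsets for GC content and length they were at -0.57 and -0.20, and neither was called.

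The 8 treated libraries were also set against the 4 untreated libraries of both days. In this comparison 2 of the 10 members were called, HEY1 and DLL1, a share of 20% beside 24.5% of 23645 genes. HEY1 averaged 4.08 ± 0.689 CPM (SD, n = 8) in treated and 2.02 ± 0.247 CPM (SD, n = 4) in untreated libraries, a log2 change of 1.02 ± 0.15 (adjusted p = 0.000213), and it was called under every alternative run. DLL1 averaged 0.277 ± 0.122 CPM against 0.0953 ± 0.0755 CPM, a log2 change of 1.41 ± 0.49 (adjusted p = 0.0456), with treated and untreated libraries overlapping. With C2 alone as the control DLL1 was at 0.82 (adjusted p = 0.307), and without the first or the second C1 library it was at 1.24 or 1.12 (adjusted p = 0.14 and 0.0777). The call was also lost with the replicate block (adjusted p = 0.0528), without the first library at 0.0005 μM and without any 1 of the 4 libraries at 0.05 and 0.5 μM, so that it was kept in 5 of the 12 fits that leave out 1 library. HES1 averaged 63.8 ± 7.62 CPM against 47.8 ± 18.3 CPM, a log2 change of 0.43 ± 0.17 (adjusted p = 0.081). It was called without the first C1 library, at 0.70, with a mean of at least 1 CPM, at 0.51, and with C2 alone as the control, at 0.91 (adjusted p = 0.000515). Leaving out 1 library gave HES1 values from 0.27 to 0.70. NOTCH3 was at 0.69 ± 0.29 (adjusted p = 0.0873), and it was called with offsets for GC content and length, at 0.82 (adjusted p = 0.0453), and without the second C2 library, at 1.03 (adjusted p = 0.0199). RBPJ was at -0.22 ± 0.09 (adjusted p = 0.103), offsets for GC content and length brought it to -0.08, and it was called without the second library at 0.0005 μM, at -0.27 (adjusted p = 0.0224). The other 5 members had adjusted p-values from 0.31 to 0.891.

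Among treated libraries alone, the slope on the logarithm of the dose asks whether a gene changed from one dose to the next without use of any untreated library. No member was called by edgeR, where 3.15% of 25057 genes were. An unadjusted p under 0.05 was found for 4 of the 10, and the share of all genes under that value was not counted. The log2 change per 10-fold dose was 0.13 ± 0.06 for HEY1 (adjusted p = 0.26), -0.005 ± 0.05 for HES1 (adjusted p = 0.968), 0.37 ± 0.16 for DLL1 (adjusted p = 0.247), -0.09 ± 0.04 for RBPJ (adjusted p = 0.22) and -0.11 ± 0.04 for JAG1 (adjusted p = 0.173). DESeq2 called JAG1 alone, at -0.12. A graded response of the members to dose was not detectable by edgeR in these 8 libraries.

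The rest of the pathway was read from a list of 66 further genes in 10 roles, of which 60 passed the filter on low counts. Against C2, from the lowest to the highest dose, 1, 0, 6 and 4 of the 60 were called, which is 1.67%, 0%, 10% and 6.67% beside the shares of all genes given above. Without the first C1 library these counts were 7, 10, 15 and 18 of 61, beside 9.23%, 12.4%, 18% and 18.5% of all genes in the same fit, and without the second they were 7, 9, 17 and 18, beside 9.52%, 12.1%, 18.1% and 18.8%. Without either C2 library they were 0, 0, 1 and 0, beside 0.316% to 3.11%, and at 0.5 μM leaving out any 1 of the 10 libraries other than C1 gave 0, beside 0.48% to 4.18%. At 0.05 μM the calls were lost without either library of that dose, where fewer of all genes were called too. At 0.005 μM, where edgeR called none of the 60, DESeq2 called 2, beside 4.93% of all genes. An unadjusted p under 0.05 was found by edgeR for 8 there, and the share of all genes under that value was not counted. In treated against untreated libraries 15 of 60 were called (25%, beside 24.5% of all genes), 5 higher and 10 lower, where 3069 of all genes were called higher and 2717 lower. That count was 8 without the first C1 library (beside 16.6% of all genes), 24 without the second (29.4%), 9 without the first C2 library (18.9%) and 10 with C2 alone as the control (13.6%).

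In that comparison 2 of 3 further ligands and 2 of 6 further HES and HEY genes were called, all 4 higher, where 3069 of 23645 genes were called higher, and no test was made of these roles. DLL4, the Delta ligand of sprouting vessels, was 1.60 and 1.04 CPM in C1 and 2.13 and 1.62 in C2, against 4.19 and 4.10 CPM at 0.0005 μM, 3.02 and 3.21 at 0.005 μM, 3.01 and 3.64 at 0.05 μM, and 2.15 and 2.41 at 0.5 μM. All treated libraries were above all untreated ones, and 13.4% of all genes did not overlap in either direction. The level of DLL4 was highest at the lowest dose. Its log2 change was 1.0 ± 0.21 in treated against untreated libraries (adjusted p = 0.00247), and its slope was -0.25 ± 0.06 per 10-fold dose (adjusted p = 0.0417). The 4 pathway genes called for their slope were DLL4, HES4, NCSTN and ADAM17, and none was called without the first or the second library at 0.0005 μM, without the second at 0.5 μM or when 0.5 was set against 0.0005 μM directly, while the replicate block kept HES4 alone. HES7, a repressor known from the segmentation clock, was at 0.49 ± 0.15 (adjusted p = 0.021). HES4, of the same family, was called for its slope alone, at -0.23 ± 0.05 (adjusted p = 0.0161). DLL3 and HEY2 also rose in this comparison, and they are named after their values were seen because both averaged under 1 CPM. DLL3, an atypical ligand, lay between 0 and 0.0368 CPM in untreated and between 0.0340 and 0.368 CPM in treated libraries (adjusted p = 0.00809). HEY2, the closest relative of HEY1, lay between 0.149 and 0.45 CPM in untreated and between 0.374 and 1.40 CPM in treated libraries, a log2 change of 1.42 ± 0.37 (adjusted p = 0.0111).

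Among the protease genes, ADAM10, which makes the first cut, ran from 190 to 211 CPM in untreated and from 126 to 194 CPM in treated libraries, a log2 change of -0.40 ± 0.11 (adjusted p = 0.0131). NCSTN, a subunit of γ-secretase, was at -0.58 ± 0.16 (adjusted p = 0.0151) with a slope of -0.17 ± 0.04 per 10-fold dose (adjusted p = 0.0447). ADAM17 was called at 0.05 μM against C2, at -0.53 ± 0.12 (adjusted p = 0.0212), and for its slope, at -0.18 ± 0.04 (adjusted p = 0.0309). Its call at 0.05 μM was kept in 6 of the 12 fits that leave out 1 library, and was lost without any 1 of the libraries of C2, 0.005 μM or 0.05 μM (adjusted p up to 0.164), with at least 1 count in total (adjusted p = 0.0882) and against C1 (adjusted p = 0.19).

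The largest fall was that of NEURL1B, an E3 ligase that promotes ligand endocytosis, from 4.77 to 12.5 CPM in untreated to 2.24 to 3.79 CPM in treated libraries, a log2 change of -1.22 ± 0.21 (adjusted p = 0.000591). The coactivators MAML3, of the Mastermind family that bridges the Notch complex, and KAT2B, an acetyltransferase, also fell, at -0.57 ± 0.15 (adjusted p = 0.00959) and -0.46 ± 0.08 (adjusted p = 0.000786). The corepressors NCOR1 and CTBP1 fell by 0.39 and 0.37 on the log2 scale (adjusted p = 0.0216 and 0.0233), and POGLUT1, which adds O-glucose to Notch, by 0.31 (adjusted p = 0.0278). CCND1 and SOX9, reported targets that answer to many other pathways, fell by 0.57 and 0.61 (adjusted p = 0.0137 and 0.0202). Without the first C1 library NCSTN, NCOR1, CTBP1, CCND1, SOX9 and HES7 were no longer called. The calls of NCSTN, NCOR1, CTBP1 and SOX9 were also lost without the first C2 library, that of POGLUT1 without either C2 library (adjusted p = 0.071 and 0.0621), and those of ADAM10, CTBP1, HES7 and DLL3 with C2 alone as the control (adjusted p from 0.0631 to 0.255). DLL4, HEY2, NEURL1B, MAML3 and KAT2B kept their calls without any 1 of the 4 untreated libraries and with C2 alone. None of the 8 tested genes for turnover and inhibition, such as NUMB and FBXW7, was called in any of the 7 comparisons by edgeR.

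**Figure D4:**
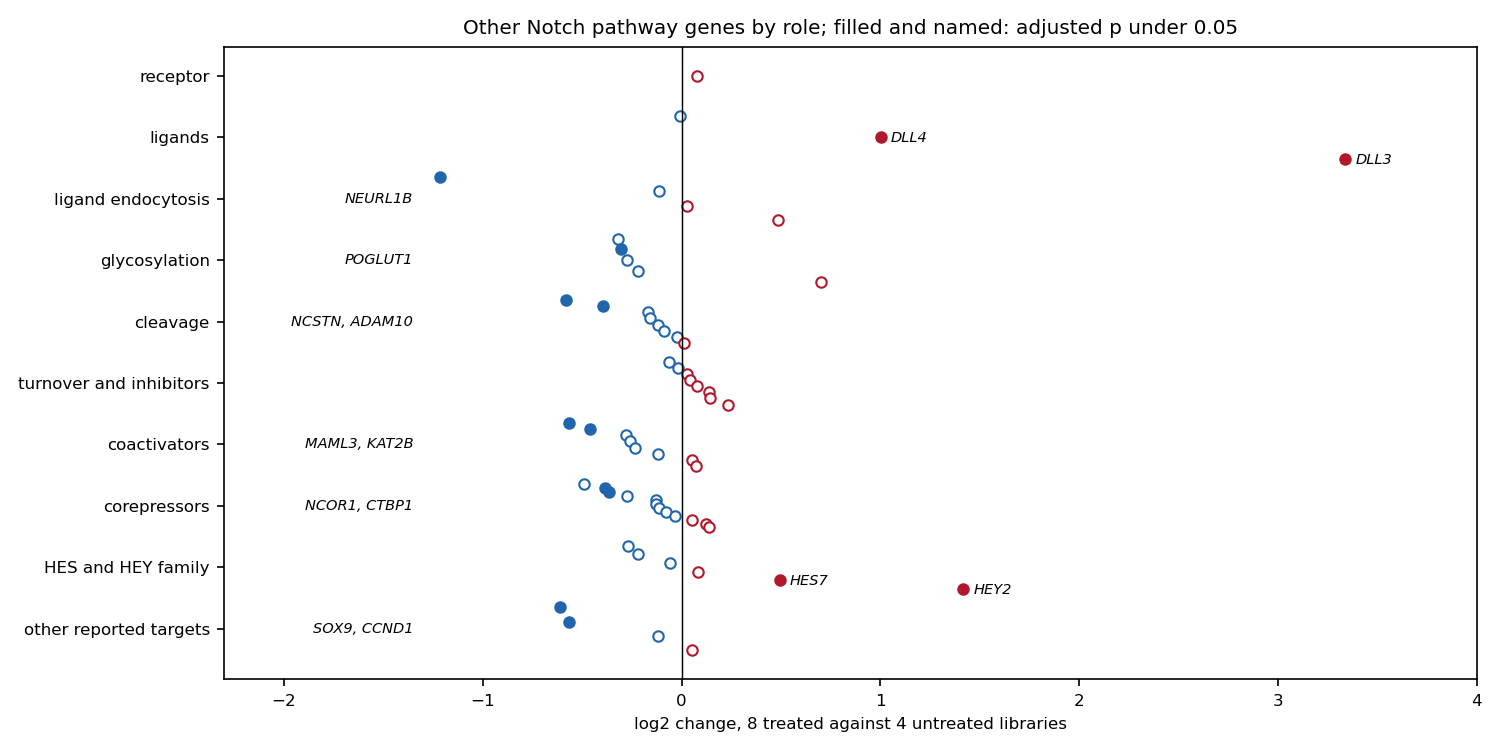
Log2 change in 8 treated against 4 untreated libraries for other pathway genes tested, by role, filled where the adjusted p was under 0.05, with the names of lower genes listed to the left. The called ligands and HES and HEY genes lie to the right of 0 and most called genes of the other roles to the left.

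The genes most like each member over the 6 condition means were sought among 9618 genes with a mean of at least 10 CPM, by the root mean square difference of centred log2 CPM. HEY1 was nearest to TUBB2B and TUBB2A, at 0.14 for both, while HEY1 itself varied by 0.51 around its mean. HES1 was nearest to FTL and SNHG8, at 0.13 and 0.14 beside its own 0.36. RBPJ was nearest to CEP170P1 and SLC38A1, at 0.01 each beside 0.15, and NOTCH2 to SCAMP4 and BAHD1, at 0.03 each beside 0.16. DLL1, whose values are noisy, had no close neighbour, its nearest being TXNIP at 0.47 beside 0.97. These are descriptions over 6 points, with no test.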

How the data were processed

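Per the labels and the methods of the study, the authors trimmed reads with Trimmomatic 0.39, checked them with FastQC 0.11.9, aligned them to GRCh37 with STAR 2.7.5 keeping unique alignments, and counted exonic reads per gene with Rsubread, with the strand setting not given in the sources used here. The deposited values are whole-number counts of 63568 genes, neither normalized nor pooled. The members and gene lists were chosen with earlier results of these data known. Counts were fitted in R 4.3.3 with edgeR 4.0.16 (TMM, filterByExpr, robust quasi-likelihood test, two-sided) with Benjamini-Hochberg adjustment over all genes tested, and called at an adjusted p under 0.05. Doses and days were contrasts of 1 model of 6 conditions with 6 residual degrees of freedom, and treated against untreated and the slope on log10 dose had fits of their own. Standard errors are the log2 change over the root of F. All members were named, and further pathway genes if called in at least 1 comparison with a mean of at least 1 CPM, except that some single genes are counted and not reported here by name. Symbols, coordinates, lengths and GC content came from GENCODE on GRCh37, and 88.2% of tested genes had them. Alternatives were DESeq2 1.42.0, RLE, other filters, no robust estimation, a replicate block, GC and length offsets, other controls and leaving out each library. The fits were tested on simulated counts with known changes. A single 2 against 2 comparison cannot give an exact permutation p below 0.333, so calls rest on the spread shared by all conditions.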

Additional observations from a re-analysis of the deposited data

How the results depend on the processing

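HEY1 kept its direction and its call at each dose and in treated against untreated libraries under every setting other than leaving out a library. The number of members called at 0.0005 μM was 1 with day 2 as the control, beside 7.81% of all genes. At 0.005 μM it was 2 with a mean of at least 1 CPM (beside 2.23% of all genes), the replicate block (3.55%), GC and length offsets (7.13%) and DESeq2 (4.93%). It was also 2 with the 4 libraries alone (11%), both untreated days (13.5%) or day 2 (12.7%) as the control, and 3 with at least 1 count in total (3.9%). At 0.05 μM it was 4 with both untreated days as the control and 3 with the 4 libraries alone, GC and length offsets or at least 1 count in total, where NOTCH1 was added, beside 17.1%, 12.6%, 13.7% and 5.65% of all genes in these fits. In C2 against C1 it was 2 with at least 1 count in total, beside 0.797% of all genes. It was 1 with a mean of at least 1 CPM (0.646%), the replicate block (0.364%), offsets (1.38%) or DESeq2 (1.17%). In treated against untreated libraries the replicate block gave 1 (beside 24.3% of all genes) and GC and length offsets gave 3 (28.1%), and for the slope DESeq2 gave 1 (7.78%). Leaving out 1 library gave 0 to 2, 0 to 3, 2 to 5 and 1 to 2 members in order of dose, 0 to 3 in C2 against C1, 1 to 3 in treated against untreated libraries and 0 for the slope. The 5 members at 0.05 μM came without a C1 library, beside 18% and 18.1% of all genes, and the 3 in C2 against C1 without the second C1 library, beside 7.03%. A fit that leaves 1 library in a condition assumes that it varies like the others.

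The replicate numbers do not pair the libraries: same-numbered deviations correlated above 0.1 in 8 of 15 pairs of conditions, from -0.60 to 0.70. The counts with the replicate block were 2, 2, 2 and 2 in order of dose, 1, 1 and 0. Beside them stood 2.67%, 3.55%, 8.64%, 7.15%, 0.364%, 24.3% and 1.68% of all genes.

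With day 2 as the control, chosen after seeing the data, NOTCH1 turned to -0.56, -0.57 and -0.44 at 0.0005, 0.005 and 0.5 μM, NOTCH3 to 0.51 at 0.5 μM, and DLL1 to 1.56 and HES1 to -0.22 at 0.005 μM. DLL1 was 0.70 there with both untreated days, and NOTCH1 was 0.32 in treated against untreated libraries with C2 alone. Leaving out 1 library turned some uncalled values. In C2 against C1 the ranges were -1.24 to 0.40 for NOTCH1, -0.77 to 0.66 for NOTCH2, -0.34 to 0.47 for JAG1, -0.64 to 0.48 for NRARP and -0.10 to 0.99 for NOTCH3. In treated against untreated libraries they were -0.25 to 0.43 for NOTCH1, -0.46 to 0.06 for NOTCH2, -0.10 to 0.18 for JAG1 and -0.29 to 0.12 for NRARP. All these extremes came from C1 except those of NOTCH3, which came from C2. Against C2 they were -0.23 to 0.87, -0.20 to 0.90 and -0.50 to 0.60 for NOTCH3 at 0.0005, 0.05 and 0.5 μM, -0.125 to 0.508, -0.46 to 0.17, -0.35 to 0.29 and -0.31 to 0.33 for NRARP in order of dose, -0.155 to 0.24, -0.096 to 0.299 and -0.377 to 0.017 for JAG1 at the 3 higher doses, and -0.125 to 0.191 and -0.057 to 0.34 for JAG2 at 0.0005 and 0.5 μM. NOTCH1 at 0.0005 μM, NOTCH2 at 0.0005 and 0.05 μM, RBPJ at 0.0005 μM, JAG2 and RBPJ in C2 against C1, and the slopes of NOTCH2 and HES1 also crossed 0. The slope of NRARP ran from -0.071 to 0.011. Only NOTCH2 in C2 against C1 was called after turning. The cause was not tested.

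Pathway genes called ranged over the alternatives from 0 to 9, 0 to 11, 0 to 17 and 0 to 18 in order of dose, beside 1, 0, 6 and 4, from 8 to 24 beside 15 in treated against untreated libraries, 0 to 10 beside 0 in C2 against C1 and 0 to 8 beside 4 for the slope. Over the same alternatives the share of all genes called ranged from 0.536% to 12%, 0.316% to 13.5%, 1.19% to 18.1% and 0.48% to 18.8% in order of dose, 11.7% to 29.4%, 0% to 10% and 0.412% to 7.78%. DLL1 was not tested with a mean of at least 1 CPM. Depth limits DLL1 most, with at most 31 counts in a library.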
